A study of Homo sapiens with 3 samples.

Results

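Each of 10 apolipoprotein genes was followed by its symbol through 3 cultures of a liver cancer line, namely HepG2, its metformin-selected derivative HepG2/metR, and that derivative given oxamate. The genes were APOA1, APOA2, APOA4, APOA5, APOB, APOC1, APOC2, APOC3, APOE and APOH, that is 10 of the 25270 gene symbols in the deposited files. HepG2 is a human hepatocellular carcinoma line. The HepG2/metR cells were what survived when HepG2 was kept under metformin, an inhibitor of mitochondrial complex I, for more than 5 months, and the sources used here do not say whether they are a clone or whether metformin was still in the medium at harvest. The third culture was HepG2/metR given oxamate, an inhibitor of lactate dehydrogenase, added at 40 mM for 24 h to cultures that were not yet confluent. The serum-supplemented base medium was the same for all cultures, apart from the oxamate and any metformin still present. Total RNA from each culture was sequenced. The study asked which genes follow lactate, which is high in HepG2/metR cells and lowered by oxamate.

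There was 1 library per condition (n = 1), so no difference given here has a replicate error, a test or a p-value, and variation between cultures cannot be told apart from the conditions. Levels are given as FPKM, fragment counts scaled by transcript length and library size, recovered from deposited values in the form of log2(FPKM + 1). FPKM is corrected for transcript length, so levels of different genes are set side by side. How well the correction holds for short transcripts was not checked. Differences between libraries are differences of the deposited log2(FPKM + 1) values, a scale on which a gene cannot fall by more than its starting level.

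Apolipoproteins are the protein part of lipoproteins, the particles that carry cholesterol and triglyceride through blood. Hepatocytes build very low density lipoprotein on apolipoprotein B and secrete the apolipoproteins of high density lipoprotein, and HepG2 is a common model of both. The exchangeable apolipoproteins of the A, C and E groups move between particles, where they direct lipases, transfer proteins and receptors. Their genes depend on liver-enriched transcription factors such as HNF4A, and several lie side by side in clusters.

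The labels call every library liver-derived HepG2, and this was checked against 10 defining hepatocyte markers (ALB, AFP, TTR, TF, SERPINA1, FGA, FGB, FGG, AHSG and AMBP). In HepG2 all 10 were present, from 163 to 9206 FPKM. In HepG2/metR 4 of them were listed at 0 and only SERPINA1 (11.2 FPKM) and FGB (1.30) reached 1 FPKM. With oxamate 1 was listed at 0 and again only these 2 reached 1 FPKM. The summed level of the markers was 21057 FPKM in HepG2, 13.8 in HepG2/metR and 10.97 with oxamate. The 2 HepG2/metR libraries therefore went against the liver label, with 8 of the 10 defining markers under 1 FPKM. The hepatocyte markers moved with the apolipoproteins in every comparison with HepG2, and their part in the results was not tested. Selection under metformin and any other difference between the cultures, their identity included, cannot be told apart in these files, and this holds for every value of HepG2/metR set against HepG2. In these bulk libraries, fewer cells of a type and less RNA per cell cannot be told apart.

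Because the members moved together, the sequence just before the start of the gene is shown for the 3 members with the highest level left in HepG2/metR (APOE, APOC1 and APOA2) and for 2 that were listed at 0 there (APOC2 and APOA5). RefSeq promoter windows (build GRCh38.p14) were matched by symbol for 7 of the 10 genes, those 5 with APOA4 and APOH. Each window shown holds the 250 bases before the outermost start, read 5′ to 3′ on the strand of the gene. APOE is at chr19:44905546-44905795 on the plus strand, APOC1 at chr19:44914422-44914671 on the plus strand, APOA2 at chr1:161223629-161223878 on the minus strand, APOC2 at chr19:44945801-44946050 on the plus strand and APOA5 at chr11:116792421-116792670 on the minus strand. Capitals mark the motifs described after the sequences, on either strand.
APOE: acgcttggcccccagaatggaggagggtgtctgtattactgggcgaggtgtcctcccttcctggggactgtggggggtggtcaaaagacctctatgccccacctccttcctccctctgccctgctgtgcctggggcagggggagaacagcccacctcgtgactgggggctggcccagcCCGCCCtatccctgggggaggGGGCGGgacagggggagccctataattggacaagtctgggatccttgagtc
APOC1: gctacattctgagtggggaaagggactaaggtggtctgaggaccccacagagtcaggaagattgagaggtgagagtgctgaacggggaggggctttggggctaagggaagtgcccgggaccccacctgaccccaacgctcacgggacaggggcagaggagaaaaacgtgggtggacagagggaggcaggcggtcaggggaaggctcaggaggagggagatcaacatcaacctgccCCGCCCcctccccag
APOA2: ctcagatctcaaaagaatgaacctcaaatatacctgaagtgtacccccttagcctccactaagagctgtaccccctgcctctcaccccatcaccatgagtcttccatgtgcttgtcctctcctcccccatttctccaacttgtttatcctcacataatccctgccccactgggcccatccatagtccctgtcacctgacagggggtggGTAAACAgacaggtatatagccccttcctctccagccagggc
APOC2: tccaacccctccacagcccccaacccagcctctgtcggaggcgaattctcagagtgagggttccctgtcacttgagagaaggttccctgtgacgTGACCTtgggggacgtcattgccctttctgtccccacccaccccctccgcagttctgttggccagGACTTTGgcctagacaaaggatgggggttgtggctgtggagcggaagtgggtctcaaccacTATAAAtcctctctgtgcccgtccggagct
APOA5: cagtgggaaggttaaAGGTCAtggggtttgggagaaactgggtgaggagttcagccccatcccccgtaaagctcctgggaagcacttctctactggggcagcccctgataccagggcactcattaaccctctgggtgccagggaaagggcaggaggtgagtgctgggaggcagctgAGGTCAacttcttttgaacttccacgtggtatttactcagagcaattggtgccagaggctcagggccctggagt

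Exact letters were searched on both strands, and positions are counted back from the base before the start, which is -1. The window of APOE held the Sp1 box GGGCGG at -72 to -67 on the opposite strand and at -51 to -46 on its own strand. APOC1 held it at -15 to -10 on the opposite strand. Of the 7 members searched, these were the 2 with a match to this box, which 42.6% of all 35116 RefSeq windows hold. APOA1, APOB and APOC3 had no window and were not searched. APOA2 held a forkhead core (TGTTTAC or TGTTTGC, in 6.09% of windows) at -42 to -36 on the opposite strand. APOC2 held TATAAA (10.7% of windows) at -30 to -25, the HNF4-type core CAAAGTC (2.91% of windows) at -91 to -85 on the opposite strand, and the nuclear receptor core AGGTCA (12.1% of windows) at -156 to -151 on the opposite strand. APOA5 held AGGTCA at -235 to -230 and at -74 to -69. APOH and APOA4 held none of these motifs. No marked motif overlapped another. The GC content of the 7 windows went from 33.2% in APOH to 64.8% in APOE, against a median of 58.0% over all windows. These matches describe letters in the windows and were not tied to any factor.

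In parental HepG2 cells all 10 apolipoprotein genes were at 1 FPKM or more, and in HepG2/metR cells 2 were, APOE and APOC1. The 10 genes added up to 20271 FPKM in HepG2, 3.60% of the summed FPKM of all genes. In HepG2/metR they added up to 23.8 FPKM (0.00446%) and with oxamate to 33.8 FPKM (0.00714%). Every one of the 10 was lower in both HepG2/metR libraries than in HepG2. The median difference of the 10 members was -8.44 for HepG2/metR against HepG2 on the log2(FPKM + 1) scale. Over the 9 members with a mean of at least 1 FPKM it was -8.67, while over all 12207 such genes it was 0.02. The 5 members listed at 0 in HepG2/metR fell by their whole HepG2 level, so the member medians depend on that floor.

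**Figure D1:**
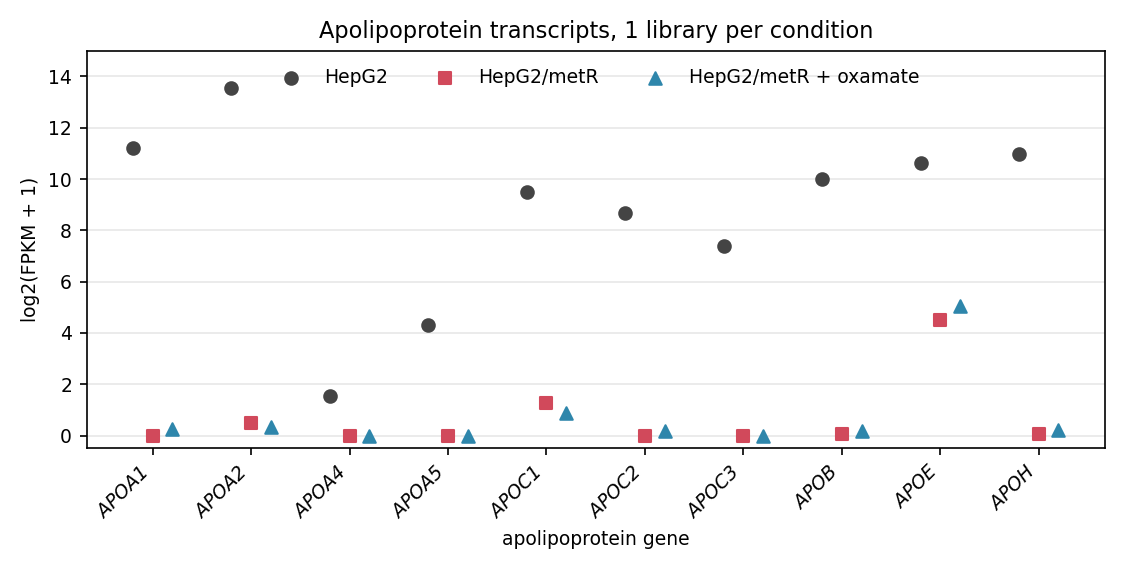
Level of each apolipoprotein gene, as log2(FPKM + 1), in the HepG2 library (circles), the HepG2/metR library (squares) and the oxamate-treated HepG2/metR library (triangles), 1 library each. All circles lie above the squares and triangles, and APOE is the gene with the highest squares and triangles, at 4.52 and 5.05.

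At least 2-fold lower was used as the mark of a fall. The study used a 2-fold limit in this comparison to select genes that were higher in HepG2/metR, and the same size is applied here to falls. The mean over the libraries was at least 1 FPKM for 9 of the 10 genes, and 8 of the 10 were at 1 FPKM or more in HepG2 alone. All 9 fell at least 2-fold in HepG2/metR, against 17.6% of the 12207 genes. The other member, APOA4, was listed at 1.87 FPKM in HepG2 and at 0 in both other libraries. A gene that passed this filter only through its HepG2 level had to be lower in the others, so the count of 9 is not evidence on its own. A background that does not use the other libraries is the 844 genes at 100 FPKM or more in HepG2. Of these, 108 (12.8%) fell in HepG2/metR by 10-fold or more. The 8 members in that range, all but APOA4 and APOA5, were all at least 10-fold lower.

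The apolipoproteins of high density lipoprotein were among the most abundant transcripts of HepG2. APOA2, the second most abundant protein of that particle, was listed at 11976 FPKM in HepG2, 0.407 in HepG2/metR and 0.273 with oxamate. It ranked 1 of all genes in HepG2 and its difference of -13.05 was the largest fall of the 844 genes on the log2(FPKM + 1) scale, where the starting level caps the fall. Without a pseudocount APOH (-15.83) and APOB (-14.99) fell by more than APOA2 (-14.84), and with a pseudocount of 0.1 APOA1 did (-14.54 against -14.53). APOA1, the main protein of high density lipoprotein and the activator of the cholesterol-esterifying enzyme LCAT, was listed at 2380 FPKM in HepG2, 0 in HepG2/metR and 0.198 with oxamate. It ranked 18 in HepG2 and 6 of 844 by fall. Both genes were high in HepG2 alone.

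APOA4 and APOA5 lie in the same cluster as APOA1 but were expressed far less. APOA5, which promotes the clearance of triglyceride-rich particles, was listed at 18.6 FPKM in HepG2 and at 0 in both HepG2/metR libraries. APOA4, mainly an intestinal apolipoprotein, was the lowest member in HepG2, at 1.87 FPKM. It too was listed at 0 in the other libraries. Of 10 intestinal markers, VIL1 (120 FPKM) and LGR5 (34.5) reached 1 FPKM in HepG2, and none did in HepG2/metR or with oxamate, where the list summed to 0.4995 and 0.857 FPKM. The intestinal genes CDX1, SI, ALPI and MUC2 were listed at 0 in HepG2 and in HepG2/metR, and CDX2 was listed at 0 in HepG2, at 0.395 in HepG2/metR and at 0.541 with oxamate.

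APOB encodes the structural protein of very low and low density lipoprotein and carries those particles to their receptors. It was listed at 1018 FPKM in HepG2, 0.0313 in HepG2/metR and 0.115 with oxamate, with a difference of -9.95 between the first pair. APOH, also called beta-2 glycoprotein I, binds phospholipid and is better known from coagulation than from lipid transport. It was listed at 2007 FPKM in HepG2, 0.0345 in HepG2/metR and 0.169 with oxamate, a difference of -10.92. For both genes the HepG2/metR libraries held traces well under 1 FPKM.

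The C apolipoproteins set the pace of lipolysis. APOC2, the activator that lipoprotein lipase needs, was listed at 407 FPKM in HepG2, 0 in HepG2/metR and 0.133 with oxamate. APOC3, which restrains lipoprotein lipase and remnant uptake, was listed at 168 FPKM in HepG2 and at 0 in both other libraries. APOC1, an inhibitor of cholesteryl ester transfer protein, was listed at 719 FPKM in HepG2, 1.42 in HepG2/metR and 0.860 with oxamate. APOC1 thus kept 0.198% of its HepG2 level in HepG2/metR and 0.120% with oxamate, and was the 1 C member listed above 0 in every library. Its neighbour APOC1P1 is a pseudogene copy of APOC1 with which reads may be shared. It was listed at 4.77 FPKM in HepG2, 0 in HepG2/metR and 0.0828 with oxamate. The APOC4-APOC2 read-through, which overlaps APOC2, was at 0.929 FPKM in HepG2 and at 0 in HepG2/metR.

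APOE, a receptor ligand bound by LRP1, is made by hepatocytes and also by macrophages and many other cells. It was the 1 member with a substantial level in every library, at 1576 FPKM in HepG2, 21.9 in HepG2/metR and 32.1 with oxamate. Its difference between HepG2/metR and HepG2 was -6.10 on the log2(FPKM + 1) scale, and it ranked 85 of 844 by fall. As a ratio of FPKM it was 71.9-fold lower. In HepG2/metR it ranked 3433 of all genes, against 47 in HepG2, and it kept 1.39% of its HepG2 level. APOE made up most of what the 10 genes still summed to in the HepG2/metR libraries.

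Macrophages also make APOE and APOC1, and 10 of their markers were followed beside these genes. CD14 was the 1 marker at 1 FPKM or more in any library, at 2.19 FPKM in HepG2, 0.715 in HepG2/metR and 0.607 with oxamate. The list summed to 2.48 FPKM in HepG2, 0.969 in HepG2/metR and 0.893 with oxamate. PTPRC was at 0.0142 FPKM in HepG2/metR, and CSF1R, C1QA, C1QB and TYROBP were listed at 0 there. The macrophage markers were at or near 0 in the libraries in which APOE was left.

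The share of the HepG2 level that was left differed widely among the members. In HepG2/metR it was 1.39% for APOE and 0.198% for APOC1, but 0.00340% for APOA2, 0.00308% for APOB and 0.00172% for APOH, and the other 5 members were listed at 0. Among the hepatocyte markers it was 0.800% for FGB and 0.655% for SERPINA1, and at most 0.0141%, in AHSG, for the other 8. The number of fragments behind the lowest values is unknown, so they are given as listed and not ranked further.

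**Figure D2:**
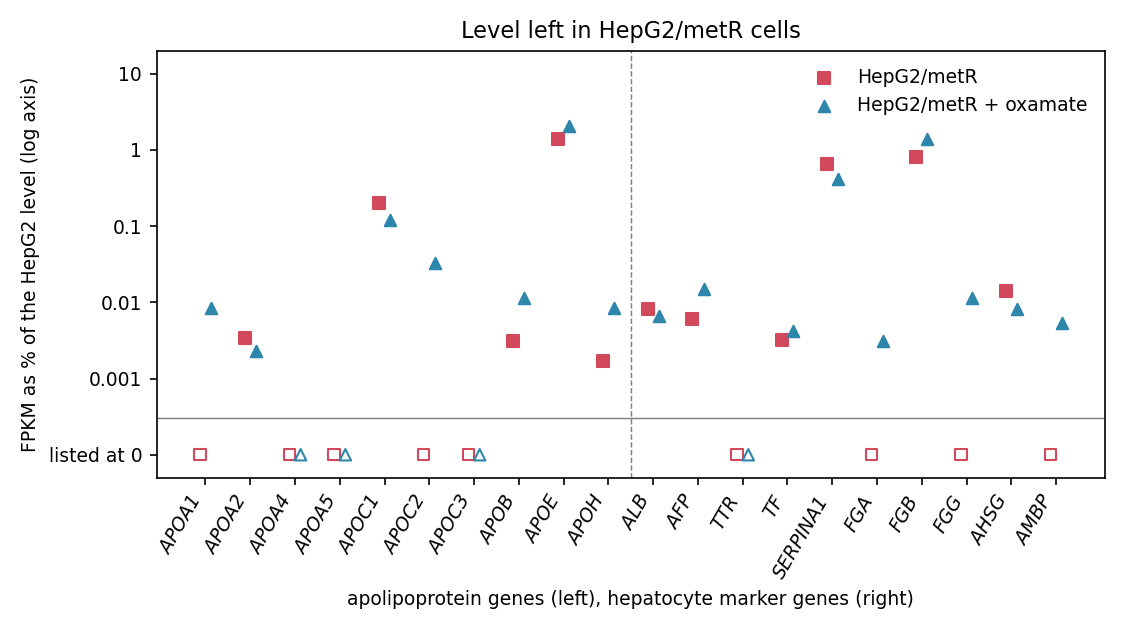
FPKM in HepG2/metR (squares) and in oxamate-treated HepG2/metR (triangles) as a percentage of the HepG2 level on a log axis, for the 10 apolipoprotein genes on the left and the 10 hepatocyte markers on the right, with open symbols on the bottom line for genes listed at 0. APOE, at 1.39% and 2.04%, lies above all other apolipoproteins, and SERPINA1 and FGB lie above the other markers.

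The members include 7 genes in 2 clusters, and most of the genes around them did not move with them. On chromosome 11 the order of the genes listed is BUD13, ZPR1, APOA5, APOA4, APOC3, APOA1 and SIK3. The 4 apolipoproteins were all listed at 0 in HepG2/metR, while ZPR1, next to APOA5, was at 31.4 FPKM in HepG2, 34.0 in HepG2/metR and 34.0 with oxamate. SIK3, a kinase gene on the other side, was at 4.50, 3.99 and 4.65 FPKM in the same order. BUD13 was at 12.7, 11.8 and 9.64 FPKM. The flanking genes thus stayed within 0.14 of their HepG2 level on the log2(FPKM + 1) scale in HepG2/metR.

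On chromosome 19 the order was BCAM, PVRL2 (NECTIN2), TOMM40, APOE, APOC1, APOC1P1, APOC4, APOC4-APOC2, APOC2, CLPTM1 and RELB. TOMM40, a subunit of the mitochondrial import channel that lies beside APOE, was at 85.4 FPKM in HepG2, 90.2 in HepG2/metR and 55.2 with oxamate. CLPTM1, on the other side of APOC2, was at 47.2, 50.6 and 45.9 FPKM in that order. Both differed by at most 0.10 between HepG2/metR and HepG2. APOE and APOC1, which kept some expression, are neighbours at the TOMM40 side of the cluster, and APOC2 at the CLPTM1 side was listed at 0 in HepG2/metR. Farther out the picture was mixed. BCAM, an adhesion molecule, fell from 95.0 to 4.94 FPKM and was at 8.79 with oxamate, and RELB, an NF-kappaB subunit, was at 1.33 FPKM in HepG2, 4.32 in HepG2/metR and 4.90 with oxamate.

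The list of neighbours held 13 genes found in the files, those beside the single genes APOA2 and APOH included. APOC1P1, APOC4 and APOC4-APOC2 of the chromosome 19 cluster were not on it, and APOC1P1 went from 4.77 to 0 FPKM in HepG2/metR. Of the 13, 2 were higher in HepG2/metR by 2-fold or more, 3 lower and 8 neither, with a median of 0.07. With a mean of at least 1 FPKM, 2 of 12 were lower, against 17.6% of all such genes. TOMM40L, next to APOA2, was at 19.01 FPKM in HepG2, 7.97 in HepG2/metR and 7.89 with oxamate. FCER1G on its other side was at 2.34, 0.0924 and 0.0920 FPKM. PRKCA, beside APOH, was at 14.3, 23.6 and 27.6 FPKM. The falls of the members were therefore not shared by most of the listed neighbours.

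With oxamate, no member passed a 1.5-fold limit in either direction on the log2(FPKM + 1) scale. The study's methods give that limit for decreases with oxamate, while its results name a 2-fold cut-off. All members but APOE and APOC1 were too low in both HepG2/metR libraries to pass 1.5-fold on this scale. The result therefore bears on APOE and APOC1 only. Of the 12207 genes, 4.3% rose and 3.82% fell by 1.5-fold or more. APOE came closest, with a difference of 0.53 where the limit is 0.58, from 21.9 to 32.1 FPKM. With every library scaled to the same total FPKM it was 0.70 and past the limit, but the median of all genes was then 0.17, and relative to that median the difference of APOE was 0.53. APOC1, the other member above 1 FPKM, went from 1.42 to 0.860 FPKM, a difference of -0.38.

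The remaining 8 members were under 0.5 FPKM in both HepG2/metR libraries. A gene under 0.5 FPKM in both cannot differ by 1.5-fold with a pseudocount of 1, so their outcome was fixed in advance. The same holds for genes of the other lists at that level. Of these 8 members, APOA1 and APOC2 went from listed at 0 to 0.198 and 0.133 FPKM, and APOB and APOH from 0.0313 and 0.0345 to 0.115 and 0.169 FPKM. APOA2 went from 0.407 to 0.273 FPKM, and APOA4, APOA5 and APOC3 were listed at 0 in both. With a pseudocount of 0.1 in place of 1, 4 members (APOA1, APOB, APOC2 and APOH) passed 1.5-fold upward and APOC1 downward, and 4 of the 10 hepatocyte markers passed it upward as well. These calls rest on traces, and from the smallest values in the files the oxamate-treated library was 1.24 times and the HepG2/metR library 1.21 times as deep as the HepG2 library.

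Against HepG2, the oxamate-treated cells kept the pattern of HepG2/metR. The difference was -13.20 for APOA2, -10.96 for APOA1, -10.75 for APOH, -9.84 for APOB and -5.57 for APOE, where APOE kept 2.04% of its HepG2 level. All 9 members with a mean of at least 1 FPKM were at least 2-fold lower, against 17.6% of all genes. As before, a gene that passed this filter only through its HepG2 level had to be lower, so the count is not evidence on its own. The HepG2 library is shared with the comparison before, so these values are not independent of it.

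The machinery that loads and secretes apolipoprotein B was lower in part. Of 14 genes for lipoprotein assembly and secretion, 9 were lower in HepG2/metR by 2-fold or more, 0 higher and 5 neither, with a median of -1.52. Counted over genes with a mean of at least 1 FPKM, 9 of 13 were lower, against 17.6% of all such genes. Genes that passed this filter only through HepG2, such as MTTP and CIDEB, had to be lower, so this count is not evidence on its own. MTTP, the microsomal triglyceride transfer protein that lipidates apolipoprotein B, was at 26.3 FPKM in HepG2, 0.0174 in HepG2/metR and 0.00848 with oxamate. SOAT2, the liver cholesterol acyltransferase, was at 22.2, 0.0908 and 0.0178 FPKM, and DGAT2, a triglyceride synthase, at 30.5, 1.28 and 1.77 FPKM. CIDEB, which takes part in the lipidation of these particles, was at 18.0 FPKM in HepG2 and listed at 0 in HepG2/metR. P4HB, protein disulfide isomerase, the partner of MTTP with many other clients, was at 759 FPKM in HepG2, 390 in HepG2/metR and 282 with oxamate, a difference of -0.96. The genes of the general secretory route were divided. The cargo receptor SURF4 went from 193 FPKM in HepG2 to 74.3 in HepG2/metR and the coat subunit SEC24D from 25.2 to 7.22, while SAR1A and SAR1B, the coat GTPases, differed by -0.09 and 0.00. With oxamate 0 of the 14 genes passed 1.5-fold in either direction.

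Of 14 genes for plasma lipases and particle remodelling, 7 were lower in HepG2/metR by 2-fold or more, 1 higher and 6 neither, with a median of -0.76. With a mean of at least 1 FPKM, 5 of 8 were lower, against the same 17.6%. LIPC and PLTP, among others, passed this filter only through HepG2 and had to be lower, so this count is not evidence on its own. ANGPTL8 (listed as C19orf80), an inhibitor of lipoprotein lipase, was at 46.4 FPKM in HepG2 and at 0 in both other libraries. LIPC, hepatic lipase, went from 18.4 FPKM to 0, PLTP, the phospholipid transfer protein, from 16.7 to 0.0671, and PON3, a lactonase carried on high density lipoprotein, from 26.8 to 0.139. APOA1BP, an epimerase that binds APOA1, was at 34.0, 47.8 and 38.1 FPKM in HepG2, HepG2/metR and with oxamate. ANGPTL4, another inhibitor of lipoprotein lipase, was at 0.908, 9.36 and 3.82 FPKM, and was the gene higher in HepG2/metR. LPL, the lipase that APOC2 activates, was at 0.0115 FPKM in HepG2 and at 0 elsewhere. With oxamate 1 of the 14 rose at least 1.5-fold, LMF1, and 1 fell, ANGPTL4.

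Receptors that take up apolipoproteins were divided. Of 16 genes for receptors and uptake, 7 were lower in HepG2/metR by 2-fold or more, 1 was higher and 8 neither, with a median of -0.69. With a mean of at least 1 FPKM it was 7 of 14 that were lower, against 17.6% of all genes. Here too, genes that passed the filter only through HepG2, such as LSR and AMN, had to be lower. LSR, the lipolysis-stimulated receptor, was at 53.6 FPKM in HepG2, 0.272 in HepG2/metR and 0.198 with oxamate. AMN, the cubilin partner, was at 18.0 FPKM in HepG2 and at 0 elsewhere, and LRP5 at 46.1, 6.47 and 6.89 FPKM. With oxamate 1 of the 16 fell at least 1.5-fold and 0 rose. SORT1, which sorts apolipoprotein B in the Golgi, was at 30.1, 40.6 and 38.8 FPKM. VLDLR, a receptor for APOE-bearing particles, was at 0.940, 6.80 and 4.56 FPKM and was the gene higher in HepG2/metR. LRP8, another APOE receptor, lay just inside the limit at 6.56, 14.1 and 11.9 FPKM. It passed the limit with a pseudocount of 0.1 or none, with upper-quartile scaling and with the same total. Of 4 cholesterol efflux transporters, 3 fell by 2-fold or more in HepG2/metR, 0 rose and 1 did neither. These 3 were the ones with a mean of at least 1 FPKM, and 17.6% of all such genes fell. ABCG5 and ABCG8 passed that filter only through HepG2 and had to be lower, so this count is not evidence on its own. With the filter raised to 5 FPKM the count was 1. ABCA1, which loads lipid onto APOA1, was at 13.8, 1.58 and 1.61 FPKM, and ABCG5 and ABCG8 were listed at 0 in both HepG2/metR libraries.

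**Figure D3:**
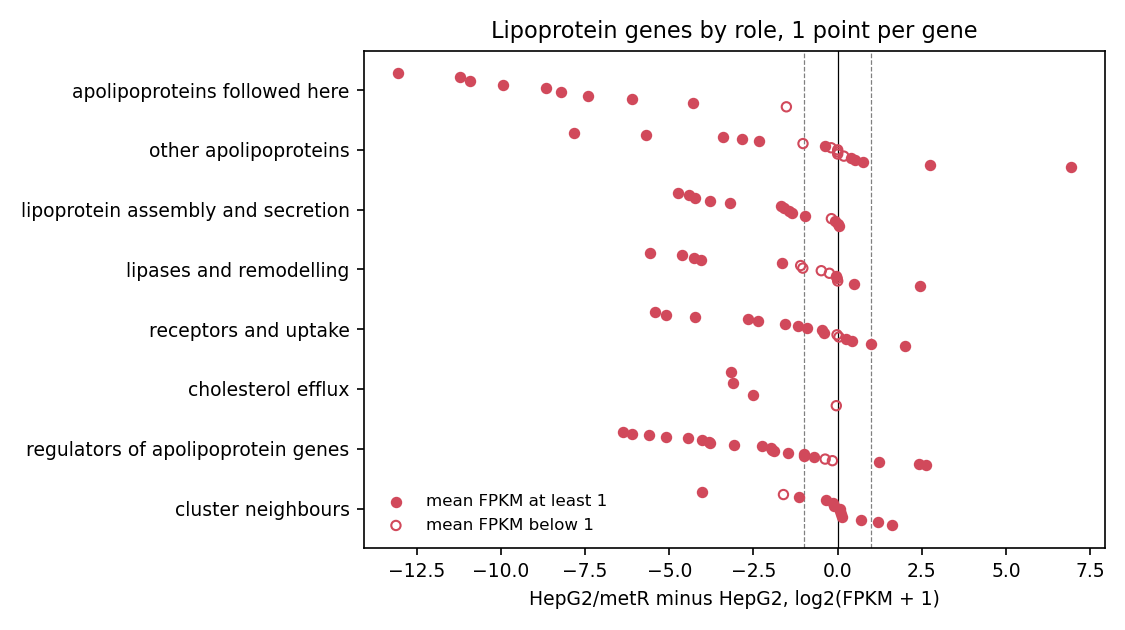
Difference between HepG2/metR and HepG2 on the log2(FPKM + 1) scale for each gene of the lists by role, with 1 point per gene, filled where the mean over the libraries was at least 1 FPKM, and dashed lines at a 2-fold difference. All points of the followed apolipoproteins lie left of the lower dashed line, while most cluster neighbours lie between the lines.

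Most factors known to act on apolipoprotein genes were lower as well. Of 22 such genes, 15 were lower in HepG2/metR by 2-fold or more, 3 higher and 4 neither, with a median of -1.96. Of the 20 with a mean of at least 1 FPKM, 15 were lower, against 17.6% of all genes. Those that passed this filter only through HepG2, such as HNF4A and NR0B2, had to be lower, so the count is not evidence on its own. HNF4A, the nuclear receptor that binds many apolipoprotein promoters, was at 68.7 FPKM in HepG2, 0.0156 in HepG2/metR and 0.0153 with oxamate. CEBPA was at 74.3, 0.558 and 0.723 FPKM. NR1H4, the bile acid receptor FXR, was at 34.7 FPKM in HepG2, 0.0328 in HepG2/metR and 0 with oxamate. NR0B2, a corepressor (SHP) that NR1H4 induces, was at 82.2 FPKM in HepG2 and at 0 in both others. These liver regulators were therefore near 0 in the same libraries as the apolipoproteins.

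Among the 3 genes that were higher were NR2F2 and NR1H2. NR2F2 (COUP-TFII), which competes with HNF4A for sites, was at 6.02 FPKM in HepG2, 42.3 in HepG2/metR and 37.5 with oxamate. NR1H2, the widely expressed oxysterol receptor LXR-beta that acts on APOE, was at 12.3, 30.1 and 33.6 FPKM. CEBPB was at 13.3, 7.84 and 5.27 FPKM, a difference of -0.70 between HepG2/metR and HepG2. With oxamate 0 of the 22 genes passed 1.5-fold in either direction. Whether the level of any of these factors bears on the apolipoproteins was not tested.

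Other genes named or classed as apolipoproteins were divided. Of 17 such genes, 6 were lower in HepG2/metR by 2-fold or more, 2 higher and 9 neither, with a median of 0.00. Of the 11 with a mean of at least 1 FPKM, 5 were lower, against 17.6% of all genes. A gene that passed this filter only through HepG2, such as SAA4, had to be lower. SAA4, the constitutive serum amyloid A of high density lipoprotein, was at 225 FPKM in HepG2 and at 1.07e-06 or less in the others. APOM, which carries sphingosine phosphate, was at 188, 2.66 and 1.56 FPKM, CLU (APOJ) at 120, 10.4 and 10.6 FPKM, and APOL1, the trypanosome lytic factor, at 36.7, 4.25 and 5.39 FPKM. APOO, a mitochondrial inner membrane protein that is an apolipoprotein chiefly by name, was at 11.4, 19.8 and 13.9 FPKM. With oxamate 0 of the 17 passed 1.5-fold.

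The genes whose pattern was most like that of a member were taken as the 3 with the smallest Euclidean distance over the 3 log2(FPKM + 1) values, among genes with a mean of at least 1 FPKM. With both HepG2/metR libraries near 0 for most members, this distance mainly reflects the level in HepG2. APOA2 was closest to ALB (distance 0.60), AFP and LYZ, and APOB to AMBP (0.09), A2M and TF. APOC3 was closest to ORM2 (0.03), SERPINA7 and HP. APOA1 was closest to the microRNA gene MIR4442 (0.32), AHSG and GPC3, and APOA5 to genes that included HAGLR (0.03), a long noncoding RNA, and PALMD. The matches were thus not all secreted liver proteins, and 1 match each of APOA5 and APOC2 is not named here. APOE had no close match. Its nearest genes were SPP1, the secreted phosphoprotein osteopontin, at a distance of 1.68, ETFB at 1.78 and FN1, fibronectin, at 1.83. SPP1 was at 1012 FPKM in HepG2, 10.8 in HepG2/metR and 13.2 with oxamate, and FN1 at 1503, 45.7 and 93.7 FPKM.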

How the data were processed

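Total RNA was extracted with Trizol, and libraries were made by a standard Illumina protocol and sequenced on an Illumina instrument, 1 library per condition. The submitters' processing notes name STAR 2.5.1b, Cufflinks 2.2.1, FastQC 0.11.5 and the build hg19, and the annotation and filters are not given in the sources used here. The authors deposited 1 log2 value per gene symbol and library, whose form is log2(FPKM + 1). This unit was inferred from the values. Of 25270 symbols, 28 read as dates, and the 4 rows whose date stood for more than 1 gene were not used.

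The deposited values were not rescaled. Log2 differences carry the pseudocount of 1, and all-gene counts used genes whose mean FPKM reached 1. No test was run, since each condition had 1 library, and reads per library are unknown. Values of 0 are called listed at 0, because an exact 0 can be a failed estimate. All 10 members and every list by role were found, except TDRD15 among the cluster neighbours, for which 13 of 14 were found. Members, lists and motifs were chosen with earlier results of these data known. Genes named in a list are those at 10 FPKM or more in a library with the largest differences of at least 2-fold (at most 4 a direction) and the highest gene that differed by less, beside all genes of the clusters shown. FCER1G, PRKCA, RELB, VLDLR, LRP8, LPL, ANGPTL4, LMF1, ABCG5, ABCG8, SEC24D, SURF4, SAR1A, SAR1B and SAA2 were named after their values were seen. Gene order came from the RefSeq table of GRCh38.p14, used for order only. Alternatives were a pseudocount of 0.1 or none, median-of-ratios, upper-quartile or equal-total scaling, and a filter removed or raised to 5 FPKM. Some genes and 1 motif are not reported here. The calculation was checked on libraries drawn with known folds. Python 3.11, numpy 2.4.6, pandas 2.3.3 and matplotlib 3.10.9 were used.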

Additional observations from a re-analysis of the deposited data

How the results depend on the processing

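The fall of the apolipoproteins in HepG2/metR held its direction and its side of the 2-fold limit under all 7 alternatives. The median of the members kept was -8.67 and went from -14.84 without a pseudocount (over 5 members) to -8.44 without a filter on low values. The count of members at least 2-fold lower was 9, and 5 without a pseudocount, because the 5 members listed at 0 in HepG2/metR then have no value. It was 10 without the filter. The background was 9.59% of genes without the filter in place of 17.6%.

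With oxamate the count of members at least 1.5-fold higher was 0, but 4 with a pseudocount of 0.1, 2 without a pseudocount and 1 with libraries scaled to the same total. The count at least 1.5-fold lower was 0, but 1 with a pseudocount of 0.1 and 1 without. The background of genes at least 1.5-fold higher was 8.32% with a pseudocount of 0.1, 9.34% without one, 9.69% with the same total and 2.28% without the filter, in place of 4.3%. For genes at least 1.5-fold lower it was 1.57% with the same total and 1.91% without the filter, in place of 3.82%. Of the other values recomputed, 347 stayed, 42 moved, all of them counts over the lists by role or of markers, and 9 differences of members with oxamate came to pass 1.5-fold. The counts with oxamate moved most with the pseudocount, as for the regulators, of which 2 were at least 1.5-fold higher with 0.1 and 3 without one, in place of 0. Upper-quartile scaling moved the median of all genes to 0.15 in HepG2/metR against HepG2. No paired analysis was possible because each condition has 1 library. The number of reads is unknown, so values under 1 FPKM carry an error that cannot be stated.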

Other observations

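The acute-phase serum amyloid A genes, whose products ride on high density lipoprotein, ran opposite to the apolipoproteins described above. SAA1 was listed at 0 in HepG2, at 121 FPKM in HepG2/metR and at 107 with oxamate. SAA2 was listed at 0 in HepG2, at 5.68 FPKM in HepG2/metR and at 5.95 with oxamate. SAA1 and SAA2 are near-identical copies, so how reads were divided between them is uncertain. SAA1 was 1 of 3 genes in the files listed at 0 in HepG2 and at 100 FPKM or more in both other libraries, and such a 0 can be a failed estimate. SAA4, the constitutive member, was at 225 FPKM in HepG2 and near 0 in the other libraries. SAA1 was therefore the most abundant gene of the 17 other apolipoproteins in HepG2/metR, where the sum of the list was 190 FPKM, against 612 in HepG2.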
